A study of Mus musculus with 4 samples.

Results

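The genes of the AMPA and kainate glutamate receptors were described here through their open chromatin: the 4 AMPA receptor genes Gria1, Gria2, Gria3 and Gria4 and the 5 kainate receptor genes Grik1, Grik2, Grik3, Grik4 and Grik5. They were chosen by name, and each was taken as its whole interval in the mouse genome plus 2 kb on each side. All 9 were found among 21883 protein-coding genes, and all 9 passed the filter on low coverage, as did 14540 genes in all. The assay was Omni-ATAC-seq on nuclei of 50000 cells per library, where the enzyme Tn5 cuts accessible DNA and tags it for sequencing. The comparison was between 2 groups. The oligodendrocyte progenitor cells (OPCs) had been made without SHH from epiblast stem cells, which are pluripotent and come from the early embryo. Their medium held 20 ng/mL of each of the growth factors bFGF and PDGFA, and cells passaged 4 times were purified by their CD140a and NG2 antigens before further expansion. The oligodendrocytes (OLs) were O1-positive cells sorted from cultures of the same origin, and how long they had differentiated is not given in the sources used here. Each group had 1 library from the stem cell line 129O1 and 1 from EpiSC5, so n = 2. The strains 129SvEv and 129S1/SvImJ are given for the 2 lines together and are not assigned to either here. The labels name no transgene or deletion in either group. Each line is a single cell line, so the spread between libraries is that between 2 lines and not between animals.

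Ionotropic glutamate receptors are ion channels of 4 subunits that open when glutamate binds. AMPA receptors, built from the GluA subunits, carry most of the fast excitatory current at synapses, and the GluA2 subunit, whose transcript is edited, makes them nearly impermeable to calcium. Kainate receptors are built from GluK1 to GluK3, which can form channels by themselves, together with GluK4 and GluK5, which bind kainate with high affinity and need a partner from the first group. OPCs are known to receive glutamatergic synapses from axons and to lose them as they differentiate, and oligodendrocytes are known to be sensitive to overactivation of these receptors.

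The measure throughout is the length of sequence in a gene interval that lay in peaks, in kb, scaled so that all 4 lists had the same total; levels below are given in the order OPC 129O1, OPC EpiSC5, OL 129O1, OL EpiSC5. The lists held 125002 to 152595 peaks over 35.02 to 44.11 Mb. The labels state 100 M reads for every sample, but the lists hold no read counts, so the reads behind each list are unknown, and a missing peak means only that none passed the caller's threshold. In these bulk libraries fewer cells with an open site and less signal per cell cannot be told apart. Whether the differentiations were independent is not stated, so each p-value refers only to a spread between these libraries. That spread is not the gene's own alone, since limma moderates it with the values of all genes. Each gene had 2 residual degrees of freedom of its own, against a median total of 19 after moderation. Oligodendrocyte markers matched the labels: 6 of 8 tested were higher in OLs and none lower, and their summed coverage was 7.27, 9.74, 18.4 and 18.7 kb. Of the 9 progenitor markers tested, 1, Sox10, was higher in OLs and none was lower. Their sum was 31.9, 28.9, 34.6 and 35.5 kb, so on these markers too both OL libraries lay above both OPC libraries.

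Of the 9 receptor genes, 2 had more peak coverage in OLs, Gria2 and Grik2, and 1 had less, Gria1, at a limma adjusted p below 0.05. Among all tested genes 11.0% were higher and 8.63% lower by the same rule, and 2 and 1 of 9 genes are too few to set the group apart from that background. The other 6 genes did not pass the test. The median log2 difference (OL minus OPC, computed after adding 200 bp) was 0.13 over the 9 genes and -0.02 over all tested genes. Both OL libraries lay above both OPC libraries for 4 of the 9 genes (Gria2, Grik1, Grik2 and Grik3), which was the case for 27.4% of all tested genes. Both OL libraries lay below for Gria1 alone, a pattern that 28.1% of all tested genes had, and the groups overlapped for Gria3, Gria4, Grik4 and Grik5. Summed over the AMPA receptor genes, coverage was 9.27, 11.2, 8.94 and 9.64 kb, with the groups overlapping under every scaling tried. Over the kainate receptor genes it was 34.4, 32.2, 39.0 and 37.5 kb, so that both OL libraries lay above both OPC libraries, which also held with median-of-ratios scaling but not without scaling (33.4, 35.7, 34.4 and 38.9 kb). The separation of the groups in Grik1 and Grik3 was likewise absent without scaling, where 2 genes lay above (Gria2 and Grik2) and 2 below (Gria1 and Grik5). With median-of-ratios scaling 5 lay above and 2 below, Grik4 and Grik5 being added. The shares of 27.4% and 28.1% among all tested genes are for scaling to the list total. Those under the other 2 scalings were not computed, so these counts cannot be set against a background.

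**Figure D1:**
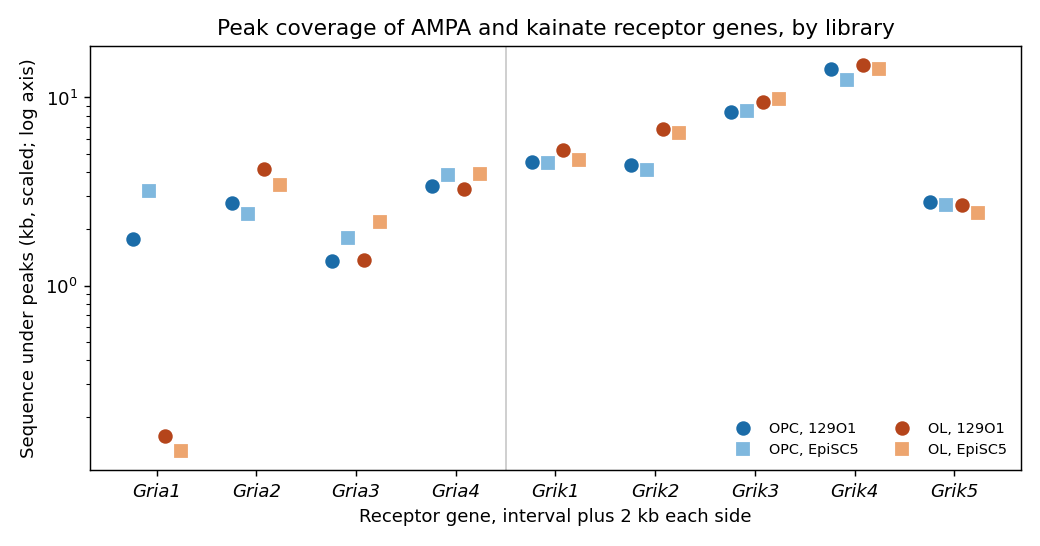
Scaled covered length in kb (vertical axis, log scale) of each receptor gene plus 2 kb on each side, with 1 point per library and the cell types and lines marked. Gria1 separates the groups most widely, at 1.77 and 3.17 kb in the OPC libraries against 0.158 and 0.132 kb in the OL libraries, and Grik4 has the most covered sequence in every library.

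**Figure D2:**
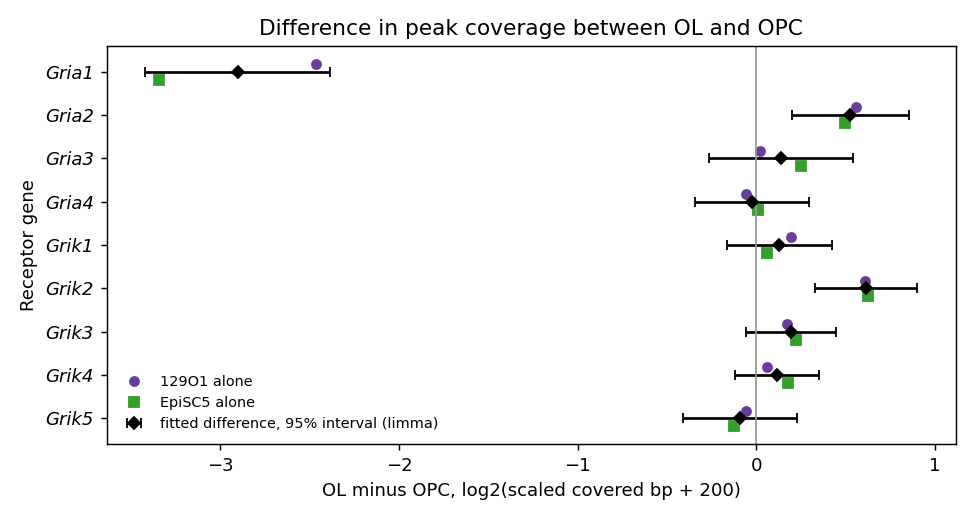
Log2 difference of scaled covered length (OL minus OPC, 200 bp added) for each receptor gene, as the fitted value with its 95% interval and the value within each cell line. The interval lies wholly below 0 for Gria1 and wholly above 0 for Gria2 and Grik2, and it spans 0 for the other 6 genes.

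Peaks at the gene starts were mostly common to both cell types. Of the 9 genes, 6 matched a promoter window of RefSeq (build GRCm38.p6, from 250 bases before to 50 bases after the start): Gria2, Gria4, Grik2, Grik3, Grik4 and Grik5. Gria1, Gria3 and Grik1 have no entry. A peak touched the window in all 4 libraries for 5 of the 6, against 53.8% of 17491 protein-coding genes with a window, whereas the Grik5 window was touched only in OPC 129O1, over its outermost 77 upstream bases. The 250 bases before the start are printed for the pair of genes with a window that gained coverage, for Gria4, an AMPA receptor gene whose coverage did not pass the test, and for Grik5, whose start lay under no peak in any library. All 4 lie on the minus strand and are printed 5′ to 3′ in the direction of transcription, with the last base next to the start. Capitals mark matches to the motifs searched.
Gria2, chr3:80802836-80803085: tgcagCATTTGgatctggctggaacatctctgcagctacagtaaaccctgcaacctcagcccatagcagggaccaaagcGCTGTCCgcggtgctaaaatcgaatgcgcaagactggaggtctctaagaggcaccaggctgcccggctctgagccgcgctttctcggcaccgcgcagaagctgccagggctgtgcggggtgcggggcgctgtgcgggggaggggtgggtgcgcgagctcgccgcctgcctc
Gria4, chr9:4796235-4796484: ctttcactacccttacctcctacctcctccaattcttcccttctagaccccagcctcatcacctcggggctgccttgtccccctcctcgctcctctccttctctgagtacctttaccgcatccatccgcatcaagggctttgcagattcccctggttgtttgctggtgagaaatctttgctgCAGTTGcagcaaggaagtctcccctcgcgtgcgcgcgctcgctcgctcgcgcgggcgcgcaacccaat
Grik2, chr10:49788755-49789004: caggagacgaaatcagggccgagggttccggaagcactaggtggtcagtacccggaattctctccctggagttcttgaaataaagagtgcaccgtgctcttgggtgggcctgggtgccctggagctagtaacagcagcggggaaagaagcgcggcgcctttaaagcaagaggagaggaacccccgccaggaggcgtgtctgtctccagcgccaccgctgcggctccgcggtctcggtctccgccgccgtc
Grik5, chr7:25072370-25072619: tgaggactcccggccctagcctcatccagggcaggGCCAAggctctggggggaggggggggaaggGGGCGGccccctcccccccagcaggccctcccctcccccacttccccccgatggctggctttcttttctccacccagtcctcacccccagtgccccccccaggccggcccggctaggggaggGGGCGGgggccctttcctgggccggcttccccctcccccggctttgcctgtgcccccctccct
The upstream sequence of Gria2 holds an E-box (CANNTG, here CATTTG) and, on the opposite strand from base -171 to -165, the letters GGACAGC, a core of the RE1 element that the repressor REST binds. GGACAGC was found in 6.6% of the 32851 windows of the table, on either strand, and CANNTG in 72.3%. Gria4 holds an E-box (CAGTTG) from -68 to -63. Grik2 has no match in its upstream sequence and an E-box across the start itself (CACTTG, -1 to 5). Grik5 holds GGGCGG (GC box) at -185 and -63 and TTGGC, part of the site bound by NFI factors, on the opposite strand at -215. GGGCGG was also found in Grik3, with 7 matches, and in Grik4, with 2. The 3 members with a GC box are all kainate receptor genes, but Gria2 and Gria4 were the only AMPA receptor genes searched. GGGCGG occurred in 35.7% of all windows and TTGGC in 46.7%. The letters ACAATG and ACAAAG (SOX), TGACGTCA (cyclic AMP response element), TGANTCA (AP-1) and CAGCACC (the other RE1 core) were in none of the 6 windows. They occurred in 12.6%, 18.7%, 1.8%, 7.8% and 7.1% of all windows. The motifs can overlap each other, and a match is only a match of letters. The guanine and cytosine content of the 6 windows ran from 59.7% in Gria4 to 82.0% in Grik3.

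Gria1, which encodes the GluA1 subunit of AMPA receptors, lies on chromosome 11 from 57011571 to 57330244 (318.7 kb). Its scaled coverage was 1.77, 3.17, 0.158 and 0.132 kb, in 7, 11, 1 and 1 peaks. Both OL libraries were thus far below both OPC libraries, and the OPC libraries themselves differed by more than the OL libraries did. The log2 difference was -2.90 (SE 0.25, 95% interval -3.42 to -2.39, limma adjusted p = 9.80e-07), with -2.46 in 129O1 and -3.34 in EpiSC5. Only 2 of the 14540 tested genes had a lower difference with 200 bp added. Both OL values lay below those 200 bp, so the size of the difference depends on the amount added. It was -3.64 with 50 bp added and -1.57 with 1000 bp added. The OL values also lay below the mean of 500 bp that the filter asked for, so Gria1 passed it through its OPC coverage. The call held in all 16 alternative settings, between -3.64 and -1.57, with an adjusted p of up to 0.0393 without scaling.

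The Gria1 peaks merged into 12 regions, none of them centred within 19.2 kb of either end of the gene. A region was called shared where all 4 libraries had a peak, OL-only where both OL libraries and neither OPC library did, OPC-only for the converse, and other for the rest; the bp of single regions are unscaled. Gria1 had 5 OPC-only regions, no OL-only region, 1 shared region and 6 others, and each of these 6 was covered in a single OPC library (5 in EpiSC5, 1 in 129O1). No other receptor gene had all but 1 of its regions confined to OPC libraries. At least 5 OPC-only regions were found in 570 of 21883 genes. Such ranks, here and for the genes below, compare raw counts and are not adjusted for gene length or number of regions. The OPC-only region with the most covered sequence, chr11:57051636-57052502, had 490 and 867 bp of peaks in OPC 129O1 and OPC EpiSC5. Its fold over background, the authors' own value, was 12.9 and 12.6, at percentiles 94.2 and 92.3 of the peaks of those lists. The next were chr11:57089524-57090021 (210 and 498 bp) and chr11:57140200-57140731 (532 and 165 bp). The fold of the third of these regions ranked lower, at percentiles 70.8 and 30.5. The shared region, chr11:57302597-57302740, was the whole of the OL coverage of Gria1. It had 131, 139, 139 and 137 bp, and its fold was 13.7, 7.28, 14.7 and 12.03. Unlike the gene as a whole, this site had about the same covered length in each library.

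**Figure D3:**
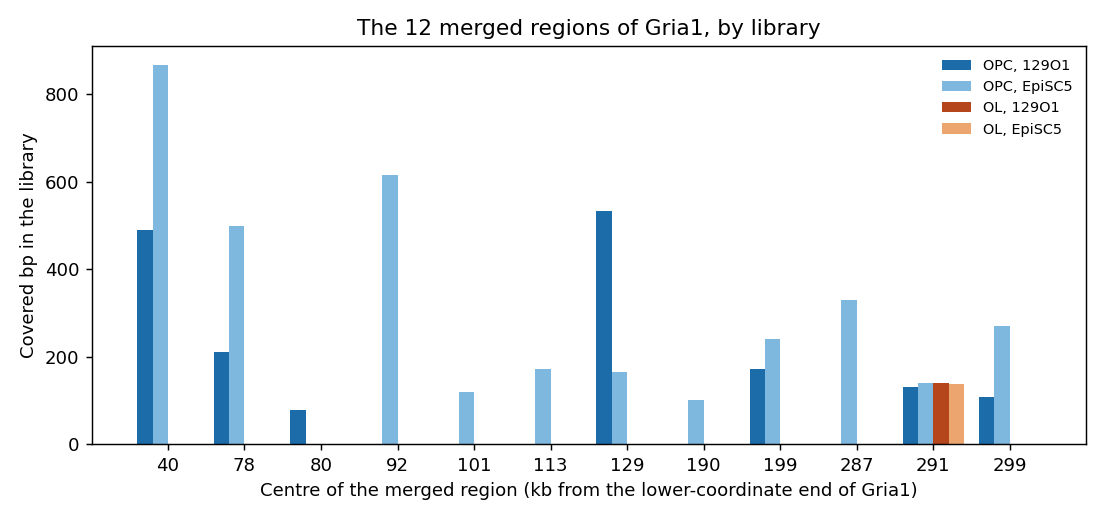
Covered bp (vertical axis, unscaled) in each of the 12 merged regions of Gria1, with 1 bar per library; the regions are evenly spaced in order and named by the distance of their centre in kb from the low-coordinate end of the gene. OL bars stand only at the shared region, whereas OPC bars stand at every region.

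Since Gria1 is also a gene of neurons, markers of other cells are given beside it. Among all tested genes 8.63% were lower in OLs at the same threshold. Of 9 neuron markers tested, 3 (Snap25, Map2 and Gad2) were lower in OLs and none higher. Both OL libraries lay below both OPC libraries for 4 of these markers and above them for 3 (Syt1, Tubb3 and Gad1). The summed coverage of the tested markers was 29.0, 32.3, 29.2 and 28.5 kb, so the groups overlapped. Of 8 astrocyte markers 3 were lower, and their sum was 16.9, 17.0, 13.8 and 14.6 kb. Of 5 vascular and mesenchymal markers tested, 4 were lower, and their sum was 8.99, 9.25, 3.73 and 3.43 kb. Among the neuron markers, Stmn2 had a peak only in OPC 129O1, and every other marker of these 3 lists had a peak in all 4 libraries. The part of other cells in the Gria1 difference was not tested. Among the genes whose coverage over the 4 libraries followed that of Gria1 most closely were Fam83a (Euclidean distance 0.49 between log2 values centred on each gene's mean), Kcnc4 (0.56), Cytip (0.80) and Grxcr1 (0.82).

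Gria2 encodes GluA2, the subunit that limits calcium entry, and lies on chromosome 3 from 80681450 to 80804227 (122.8 kb). Its scaled coverage was 2.76, 2.39, 4.17 and 3.44 kb, so both OL libraries lay above both OPC libraries. Peaks numbered 8 and 5 in OPCs and 15 in each OL library. These are not numbers of sites, since a single site can hold several peaks. The shared region chr3:80800394-80801686 held 2 and 1 peaks in OPCs and 4 in each OL library. The OPC mean was 2.58 ± 0.266 kb and the OL mean 3.81 ± 0.510 kb (SD, n = 2), a log2 difference of 0.53 (SE 0.16, limma adjusted p = 0.0225, 1.44-fold), with 0.56 in 129O1 and 0.49 in EpiSC5. This call was lost in 7 of 16 alternatives, whose adjusted p ran from 0.00812 to 0.403 over all 16. It was lost without OL 129O1 (0.40, adjusted p = 0.206) and without OPC EpiSC5 (0.43, adjusted p = 0.0987).

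The region over the Gria2 start whose upstream sequence is printed above, chr3:80802506-80803197, was shared, with 548, 692, 562 and 500 bp. Its fold of 4.28 to 5.72 ranked between percentiles 11.3 and 34.3 of the lists. The wider neighbour inside the gene, chr3:80800394-80801686, was shared too, with 1138, 1293, 869 and 954 bp. Over the start the groups overlapped, scaled or not, and at the neighbour both OL libraries lay below both OPC libraries. Gria2 had 5 OL-only regions and no OPC-only region. The largest was chr3:80756026-80756480, 46.6 kb downstream of the start, with 447 and 427 bp in OL 129O1 and OL EpiSC5. It was followed by chr3:80752436-80752638 (171 and 153 bp) and chr3:80750948-80751112 (151 and 156 bp), so that these 3 lay within a few kb of each other. The others were chr3:80768731-80768884 and chr3:80805984-80806096, centred 1.81 kb beyond the end of the gene interval on the side of the start.

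Gria3 and Gria4, which encode the remaining GluA subunits, did not pass the test. Gria3 (chromosome X, 41400819 to 41678601, 277.8 kb) had 1.35, 1.79, 1.37 and 2.16 kb, a log2 difference of 0.14 (SE 0.19, 95% interval -0.27 to 0.54, limma adjusted p = 0.713). In both cell types the EpiSC5 library was above the 129O1 library. Its sign turned in 5 of 16 alternatives, among them the number of peaks (8, 10, 6 and 9), which gave -0.37. Gria3 had 3 OPC-only regions, of which chrX:41578753-41579109 was the largest (298 and 327 bp). The others were chrX:41409899-41410114 (208 bp in each OPC library) and chrX:41527759-41527935 (96 and 177 bp). Its only OL-only region, chrX:41590825-41591104 (279 and 271 bp), lay near the largest OPC-only region.

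Gria4 (chromosome 9, 4417893 to 4796234, 378.3 kb) had nearly the same coverage in both cell types, at 3.39, 3.87, 3.25 and 3.90 kb. The log2 difference was -0.02 (SE 0.15, 95% interval -0.34 to 0.30, limma adjusted p = 0.952), and its sign turned in 5 of 16 alternatives. Of its 22 regions, 3 were OL-only and none OPC-only. The OL-only regions were chr9:4689874-4690142 (249 and 258 bp), chr9:4714131-4714366 (236 and 233 bp) and chr9:4679356-4679579 (80 and 224 bp), all between 82.0 and 117 kb downstream of the start. The region over the start, chr9:4795455-4796593, was shared and had 1053, 1107, 904 and 913 bp. Scaled to the list total these were 1083, 997, 1026 and 881 bp, and the groups overlapped.

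Grik2 was the kainate receptor gene with the largest difference. It encodes GluK2, a subunit that forms channels by itself, and it is the longest of the 9 genes (chromosome 10, 49093680 to 49790161, 696.5 kb). Scaled coverage was 4.38, 4.12, 6.77 and 6.45 kb, in 16, 14, 29 and 36 peaks. The groups did not overlap in either measure, and the gap between them was larger than the spread within each. Some sites held several peaks. The shared region chr10:49782648-49783738 held 2, 1, 4 and 4, and the shared region chr10:49256267-49257008 held 3, 1, 1 and 3. The OPC mean was 4.25 ± 0.185 kb and the OL mean 6.61 ± 0.230 kb (SD, n = 2), a log2 difference of 0.61 (SE 0.14, 95% interval 0.33 to 0.90, limma adjusted p = 0.00351, 1.53-fold). The lines gave 0.61 (129O1) and 0.62 (EpiSC5). The call was kept in 14 of 16 alternatives, with an adjusted p of 0.00111 to 0.149 over all of them, and was lost without scaling (0.50, adjusted p = 0.102) and with the 50% of each list that had the best q values (0.42, adjusted p = 0.149).

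The OL-only regions of Grik2 lay inside the gene, mostly on the side of the start. The gene had 13 OL-only regions and 1 OPC-only region, chr10:49437144-49437357 (88 and 214 bp). Of the OL-only regions, 11 were in the 50% of the interval nearer the start, the closest at 22.7 kb downstream, and 2 in the other 50%. Shared regions numbered 3 in each 50%, whereas most regions of the class other also lay nearer the start. No test was made of these positions. At least as many OL-only regions were found in 234 of 21883 genes. The largest were chr10:49646237-49646599 (288 and 363 bp in the OL libraries), chr10:49740915-49741205 (221 and 291 bp) and chr10:49765920-49766134 (202 and 215 bp), at 142, 47.7 and 22.7 kb downstream of the start. In the authors' fold values the first 2 were among the higher peaks of their lists, with 11.7 and 16.6 at the first (percentiles 91.2 and 98.8) and 11.7 and 18.1 at the second (percentiles 91.4 and 99.5). The region over the start, chr10:49788287-49789212, was shared and went the other way, with 788, 873, 650 and 464 bp. A wide shared region 5.56 kb downstream, chr10:49782648-49783738, had 996, 1054, 698 and 559 bp. Both of these regions were lower in both OL libraries with scaling too.

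Grik1 encodes GluK1 and lies on chromosome 16 from 87895901 to 88290863 (395.0 kb). Its coverage was 4.54, 4.47, 5.23 and 4.66 kb. OL EpiSC5 lay only just above the OPC libraries, and the log2 difference of 0.13 did not pass the test (SE 0.14, 95% interval -0.17 to 0.42, limma adjusted p = 0.616). Peaks numbered 14 and 12 in OPCs and 20 and 21 in OLs. Of these, 2, 1, 3 and 3 lay in the single shared region chr16:88289513-88290657. In Grik1, 8 regions were OL-only and 2 OPC-only. Of the latter, chr16:88112583-88113318 was wide, with 618 and 590 bp, and the other, chr16:87988517-87988621, had 82 and 102 bp. The largest OL-only regions were chr16:88239870-88240390 (395 and 521 bp), chr16:88258424-88258804 (381 and 325 bp) and chr16:87998254-87998627 (336 and 332 bp). Of the 8, 6 lay in the 50% of the interval with the higher coordinates. The shared region at the high-coordinate end, chr16:88289513-88290657, had 1097, 1101, 806 and 620 bp and so was less covered in both OL libraries, with scaling too.

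Grik3 encodes GluK3 and lies on chromosome 4 from 125490259 to 125714173 (223.9 kb). Its coverage was 8.41, 8.44, 9.51 and 9.86 kb. The OL libraries lay above the OPC libraries in each line, yet the log2 difference of 0.20 did not pass the test (SE 0.12, 95% interval -0.06 to 0.45, limma adjusted p = 0.293). In Grik3 the OL-only and OPC-only regions lay mostly in different stretches of the gene. Of 12 OL-only regions, 10 lay in the 50% of the interval nearer the start, and of 7 OPC-only regions, 5 lay in the 50% farther from it. Of the 10 shared regions, 8 were also in the 50% nearer the start. No test was made of this split. The largest OL-only regions were chr4:125514651-125515137 (485 and 475 bp), chr4:125617188-125617517 (222 and 330 bp) and chr4:125582477-125582758 (197 and 282 bp). The largest OPC-only regions were chr4:125651420-125652090 (659 and 406 bp), chr4:125626115-125626593 (477 and 439 bp) and chr4:125636419-125637147 (119 and 700 bp), all between 136 and 161 kb downstream of the start. At least 7 OPC-only regions were found in 274 genes and at least 12 OL-only regions in 284 of 21883. Most OL-only regions of Grik3 ranked low in fold. The region chr4:125617188-125617517 was at percentiles 74.5 and 85.2 of the OL lists, and every other one at 26.6 or below. With the 50% of each list that had the best q values, Grik3 had 5 OL-only and 2 OPC-only regions. The region over the start, chr4:125490613-125490938, was shared, with 276, 265, 177 and 272 bp, and its fold of 2.48 to 3.13 was low, at percentiles 0.2 to 2.4 of the lists.

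**Figure D4:**
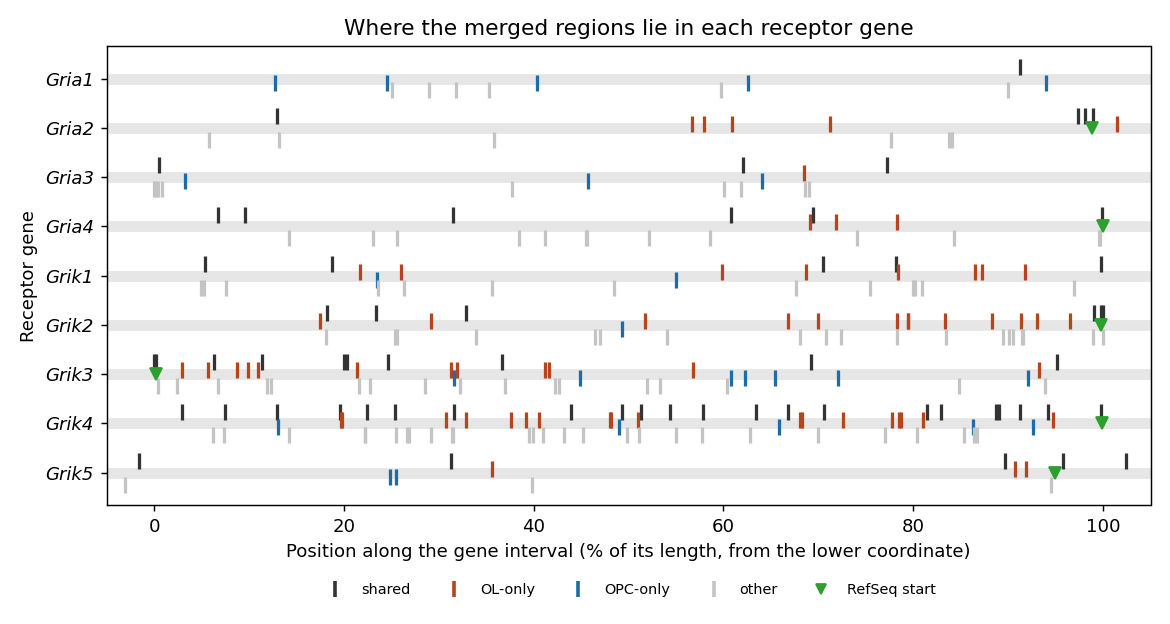
Position of each OL-only, OPC-only, shared and other region (ticks) along the 9 receptor genes, by coordinate as a percentage of the gene interval, with the RefSeq start of 6 genes as a triangle. OL-only regions of Grik2 crowd toward the high-coordinate side, where its start lies, and in Grik3 the OL-only regions lie mainly toward the low-coordinate side and the OPC-only regions toward the other.

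Grik4 encodes GluK4, a subunit that needs a partner to form a channel, and lies on chromosome 9 from 42518182 to 42945000 (426.8 kb). It had the most covered sequence of the 9 genes in every library, at 14.2, 12.5, 14.8 and 14.1 kb. The groups overlapped, and the log2 difference was 0.12 (SE 0.11, 95% interval -0.12 to 0.35, limma adjusted p = 0.548). Under this small net difference lay 18 OL-only and 5 OPC-only regions beside 22 shared ones, among 72 regions in all. Regions found in a single library numbered 12 in OPC 129O1, 8 in OPC EpiSC5 and 2 in each OL library. Without OPC 129O1 or OPC EpiSC5 the OPC-only regions of Grik4 numbered 13 and 17. Without either OL library its OL-only regions numbered 20. At least as many OL-only regions were found in 105 of 21883 genes, without regard to their length or number of regions. The largest OL-only regions were chr9:42863700-42864251 (392 and 544 bp), chr9:42658149-42658769 (363 and 533 bp) and chr9:42853189-42853518 (318 and 330 bp). The largest OPC-only region was chr9:42726871-42727481 (611 and 521 bp), followed by chr9:42799263-42799530 (268 and 148 bp) and chr9:42886417-42886634 (212 and 188 bp). The OL-only regions were divided evenly along the gene, with 9 in each 50% of the interval. The region over the start, chr9:42943093-42945049, was the widest shared region of all 9 genes, with 1622, 1810, 1503 and 1740 bp. The shared region chr9:42529789-42531082 near the far end differed between the groups, with 275 and 478 bp in OPCs against 971 and 1209 bp in OLs. It was chosen for naming once its values were known.

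Grik5 encodes GluK5, which likewise needs a partner, and is the shortest of the 9 genes (chromosome 7, 25009849 to 25075694, 65.8 kb). Its coverage was 2.80, 2.67, 2.68 and 2.43 kb, with overlapping groups and a log2 difference of -0.09 (SE 0.15, 95% interval -0.41 to 0.23, limma adjusted p = 0.766). Part of this covered sequence also lies in the regions of neighbouring genes. No peak lay over the start whose upstream bases are printed above. The shared region just upstream, chr7:25072543-25073356, whose edge in OPC 129O1 reached into those bases, had 731, 732, 189 and 285 bp. That region was thus less covered in both OL libraries, with scaling too. An OL-only region lay 2.80 kb downstream of the start, chr7:25069317-25069830, with 504 and 501 bp. The other OL-only regions were chr7:25033175-25033363 (189 and 154 bp) and chr7:25070289-25070425 (118 and 100 bp). The OPC-only pair were chr7:25026552-25026740 (189 and 147 bp) and chr7:25026158-25026284 (85 and 127 bp). At 2.01 kb the last of these OL-only regions was the closest to a start in the 6 genes with a window.

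The levels of the genes can be compared per length, as unscaled covered kb per 100 kb of interval. Grik5 (3.89, 4.24, 3.38 and 3.61), Grik3 (3.59, 4.11, 3.68 and 4.49) and Grik4 (3.21, 3.21, 3.04 and 3.39) were densest. Every Grik3 value was above every Grik4 value, and the range of Grik5 overlapped both. Gria2 followed at 2.12, 2.09, 2.90 and 2.82, below every value of these 3 genes. Grik1 (1.11, 1.24, 1.16 and 1.21) lay above Gria4 (0.862, 1.12, 0.750 and 1.06) and Grik2 (0.608, 0.652, 0.852 and 0.954), although its range touched that of Gria4. Gria3 (0.464, 0.704, 0.428 and 0.796) was lower again and overlapped Grik2. Gria1 ranged from 0.534 and 1.09 in OPCs, within the range of its neighbours in this order, to 0.043 and 0.042 in OLs, below every other gene and library.

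Over the 9 genes the lists merged into 263 regions: 63 OL-only, 25 OPC-only, 62 shared and 113 other. OL-only regions were thus 23.95% of the total, against 16.81% of the 141513 regions in protein-coding genes, and OPC-only regions 9.51% against 8.84%. Shared regions made up 23.57% against 26.79%. The difference in OL-only share lay in the kainate receptor genes, with 54 OL-only and 17 OPC-only among 198 regions, whereas the AMPA receptor genes had 9 and 8 among 65. No test was made of these shares. The background holds genes of every length, and the shares are not adjusted for gene length or for distance from the gene ends. A single remaining library is a weaker demand, and without OPC 129O1 or OPC EpiSC5 the OPC-only regions numbered 49 and 52 in place of 25.

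The regions that separated the cell types mostly lay away from the gene ends, which make up a small part of these long intervals. How many regions an even spread would place near the ends was not computed. Within 2 kb of a gene end were 1 of the 63 OL-only regions, the upstream region of Gria2, none of the 25 OPC-only regions and 11 of the 62 shared regions. Median distance from the nearer end was 87.6 kb for OL-only, 78.2 kb for OPC-only and 46.2 kb for shared regions. They were also narrower, with median widths of 220 bp (OL-only) and 241 bp (OPC-only) against 485.5 bp (shared). Over all regions in protein-coding genes these were 231, 262 and 526 bp. A shared region merges peaks of 4 lists and the others peaks of 2, so part of this contrast in width follows from the definition. Shared regions summed to 27.7, 31.3, 24.1 and 24.6 kb (unscaled) in the 4 libraries, and to 28.5, 28.2, 27.4 and 23.8 kb when scaled to the list total, so their covered length was smaller in both OL libraries on either scale. Their median covered lengths (unscaled) were 319.5, 406, 259.5 and 280 bp, against 331, 392, 296 and 306 bp over all shared regions of the lists. Summed over all shared regions and scaled, the groups overlapped. Whether a region lay in an exon or an intron was not assigned, as the annotation used here gives gene intervals only.

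**Figure D5:**
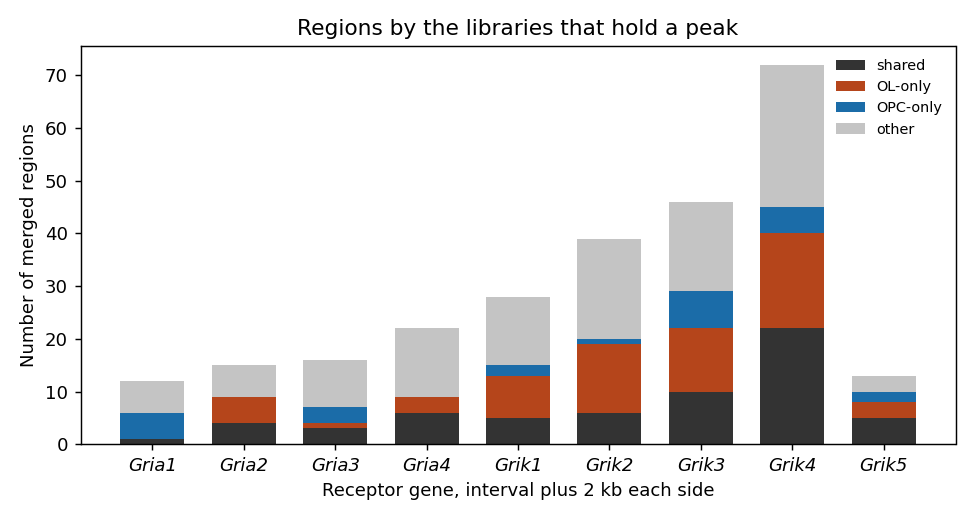
Number of merged regions in each receptor gene, as bars stacked by class (shared, OL-only, OPC-only and other). Grik4 has the most OL-only regions (18), Grik3 the most OPC-only regions (7), and Gria1 has 5 OPC-only and no OL-only regions.

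Peak coverage differed in both directions among genes for proteins that assemble, anchor and edit these receptors, or clear glutamate. The shares called were near those of all genes. Of 41 listed genes 39 were tested (Cacng8 and Nptx2 fell below the filter), and 4 were higher in OLs, 4 lower and 31 not past the threshold, against the same 11.0% and 8.63% among all genes. Their median log2 difference was 0.04. Of 16 tested genes for auxiliary and biogenesis proteins of AMPA receptors, 2 were lower and none higher. The larger change was in Gsg1l, which encodes an auxiliary subunit that dampens AMPA receptor currents, at 6.15, 7.86, 3.01 and 1.93 kb (log2 difference -1.45, limma adjusted p = 2.53e-05), a call lost only by number of peaks among 16 alternatives. As in Gria1, both OL libraries lay below both OPC libraries. Syndig1, for a transmembrane protein of excitatory synapses that associates with AMPA receptors, had a difference of -0.59 (adjusted p = 0.0284), a call that was lost in 11 of 16 alternatives, with any single library left out among them (adjusted p of 0.0206 to 0.357 over all 16). The transmembrane AMPA receptor regulatory proteins did not pass the test, with differences from -0.27 in Cacng2 to 0.40 in Cacng3. The kainate receptor auxiliary genes Neto1 (0.10) and Neto2 (-0.33) did not pass it either.

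Among 12 tested genes for scaffold, trafficking and clustering proteins, 1 was higher and 1 lower. Dlg1, for the scaffold SAP97 that binds GluA1, rose from 2.88 and 2.63 kb to 4.91 kb in each OL library (log2 difference 0.79, limma adjusted p = 0.000838), a call lost in 3 of 16 alternatives (no scaling, number of peaks and 200 bp around the summit). Gripap1, for a protein that binds the AMPA receptor scaffold GRIP, fell by 0.84 on the log2 scale (adjusted p = 0.00374), a call lost in 5 of 15 alternatives, including the loss of OPC EpiSC5 (adjusted p = 0.0624, with 0.00206 to 0.445 over all 15). The scaffold genes Grip1 (-0.28), Pick1 (-0.07) and Dlg4 (-0.19) did not pass the test. Grid1, which encodes a delta receptor, a relative of the AMPA and kainate receptors, rose by 0.60 (adjusted p = 0.00178), a call lost without scaling and with median-of-ratios scaling. Of the RNA editing enzymes, Adarb1, which edits the GluA2 transcript, was at 4.82, 4.81, 4.86 and 5.41 kb (0.09, adjusted p = 0.749), and Adarb2, an enzyme relative without known editing activity, rose by 0.79 (adjusted p = 0.000540), a call lost without scaling. The glutamate transporter gene Slc1a1 rose by 0.88 (adjusted p = 0.000389), a call lost without scaling and by number of peaks. Slc1a3, which is also on the astrocyte list, fell by 0.55 (adjusted p = 0.0125). The Slc1a3 call was lost without either OL library (adjusted p = 0.0556 and 0.0734, with 0.00425 to 0.325 over 16 alternatives).

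The list totals bear on the calls. Those of Gria2 and Grik2 were both lost without scaling to the list total, a setting that moved the median of all genes from -0.02 to -0.13 and the share of higher genes among those called from 56.1% to 33.8%. By number of peaks this share was 71.1%, and Gria1, Gria2 and Grik2 were called in that setting too. That setting counts a site more than once where it holds several peaks.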

How the data were processed

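Omni-ATAC-seq peak lists of 4 libraries were analysed, 1 per cell type and cell line. Per the submitters' processing notes, the authors' tools were Bowtie2 2.3.2, Trim Galore 0.3.1, MACS2 and Picard, on mm10. Not given in the sources used here are the caller's threshold, duplicate handling, Tn5 shift and extension of reads, each of which could change peak width and number. Each deposited list, called per library, gives per peak a score, a fold enrichment (a linear ratio) and −log10 p and q values; these deposited values are the authors' own and served here only to describe and rank peaks inside each list. The labels state 100 M reads per sample, but the reads behind each list are unknown, so no counting interval was computed.

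Gene intervals came from RefSeq GRCm38.p6, the assembly named mm10, and were extended by 2000 bp on each side. Covered bp per gene were scaled so that each list had the mean total, genes with a mean under 500 bp were dropped, and 200 bp were added before taking log2. OL and OPC were compared with limma 3.58.1 (R 4.3.3), two-sided, its variances moderated along a trend with the mean and its p-values adjusted by Benjamini-Hochberg over 14540 genes (threshold 0.05). The fit was tested on simulated data. A fold difference on this scale is smaller than the change in bp where coverage is low. Peaks of the 4 lists that overlapped or touched were merged into regions. Libraries pair by cell line: deviations from the group means correlated at r = 0.287 over genes, which are not independent replicates. The members, gene lists and tests were chosen with earlier results of these data known. Named were all 9 receptor genes, up to 4 partner genes per list and direction past the threshold, the 5 genes most like the member with the largest difference, up to 3 OL-only and 3 OPC-only regions per gene and the regions at starts. A few genes that these rules take are not reported here. Partners that did not pass the test, shared regions away from starts and further OL-only regions were named after their values were seen.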

Additional observations from a re-analysis of the deposited data

Results flagged for a closer look

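Gria4 is listed because the lines moved in opposite directions: the log2 difference (OL minus OPC) was -0.057 in 129O1 and 0.01 in EpiSC5. With 1 library per cell type and line, the difference between the lines was not tested, and both values lie well inside the 95% interval of the fitted difference, -0.34 to 0.30. No other receptor gene changed sign between the lines.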

How the results depend on the processing

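Gria1 was called in all 16 alternatives. The 9 receptor genes had 3 calls, against 1 without scaling, 1 with the 50% of each list that had the best q values, and 2 to 3 when a library was left out, where a lone library is assumed to vary like the other group. Partner genes had 8 calls, against 1 without scaling, 2 by number of peaks, 4 with 200 bp around the summit and 6 to 8 with a library left out. Of all genes, 2857 were called, against 583 without scaling, 1812 with median-of-ratios scaling, 560 by number of peaks, 742 with 200 bp around the summit, 1670 with the 50% of each list, and 1869 (without OL EpiSC5) to 2295 with a library left out. Without OL 129O1 the share of calls that were higher fell from 56.1% to 47.3%, and with 200 bp around the summit it was 69.5%. With the cell line as a replicate block 2922 genes, 9 partner genes and the same 3 receptor genes (Gria1, Gria2 and Grik2) were called.

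The sign turned for genes that were not called. Gria3 (0.14) gave -0.37 by number of peaks and with 200 bp around the summit, -0.017 with 20 kb on each side, 1.76 with the 50% of each list (adjusted p = 0.0539, with up to 0.960 over all 16) and between -0.16 and 0.433 with a library left out (-0.045 without OPC 129O1 and -0.16 without OL EpiSC5). Gria4 (-0.02) gave 0.32 with the 50% of each list, 0.042 with no sequence added to the interval and 0.040 with 20 kb added, and between -0.148 and 0.101 with a library left out (0.068 without OPC EpiSC5 and 0.101 without OL 129O1). Grik1 gave -0.12 with the 50% of each list, and Grik4 -0.001 without scaling. With the 50% of each list, which has fewer peaks by construction, the OL-only, OPC-only and shared regions numbered 35, 14 and 21. With a library left out, OPC-only regions numbered 26 to 52, OL-only regions 71 to 84 and shared regions 63 to 72, all counts raised by construction. The cause of the other changes was not tested. Depth is unknown, so sites that no caller listed cannot be graded.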

Other observations

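Regions covered in some other combination of libraries made up 113 of the 263 in the receptor genes. Of these, 27 were found only in OPC 129O1, 24 only in OPC EpiSC5, 8 only in OL 129O1 and 21 only in OL EpiSC5. Grik4 held 12 of the regions found only in OPC 129O1 and 8 of those found only in OPC EpiSC5, whereas Grik2 held 6 of those found only in OL EpiSC5. Both libraries of a cell line shared a region that the other line lacked in 4 cases, 2 in 129O1 and 2 in EpiSC5. Of the Gria3 regions within 2.1 kb of its low-coordinate end, none but the shared chrX:41401896-41402339 had a peak in all 4 libraries, and that region was wider in EpiSC5 (393 bp in OPCs and 444 bp in OLs) than in 129O1 (85 and 97 bp). These observations were made after the values were seen and were not tested.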
